A study of Arabidopsis thaliana with 2 samples.

Results

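A plant line called cen was compared with Col wild type by whole-genome bisulfite sequencing of Arabidopsis thaliana. Every region that the authors listed for this comparison on chromosomes 1 to 5 is described, which came to 44665 of the 83919 regions deposited for both lines of the series. The other 39254 belong to ddb2-3, a line with the insertion DsLoxHs195_05H in DDB2, set against the same Col library. No label used here describes cen: its genotype, allele, age and number of libraries are not given in the sources used here, and the name is not read as any particular gene. Col was 1 library of wild-type seedlings, 10 days old and grown in vitro in liquid medium. The ddb2-3 line, also 1 library, was labelled as 10 days old too. A deposited row gives a place and a difference in methylation level, without the level of either plant, reads, coverage or a p-value, so depth is unknown. With no replicates, nothing could be tested across plants, and the 95% Wilson intervals on shares reflect counting error alone. Nearby regions depend on each other, which makes these intervals too narrow for statements about the genome. The direction of the deposited difference is an assumption, set out in the processing section, and values are given as cen minus Col. If that assumption is wrong, all directions are exchanged.

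Plant DNA is methylated at cytosines in 3 sequence contexts, CG, CHG and CHH, where H is A, C or T. CG methylation is copied at replication by MET1 and lies both in the bodies of many active genes and in transposons. CHG methylation is kept by CMT3 in a loop with methylation of histone H3 lysine 9, and CHH methylation is laid down anew by DRM2, guided by small RNAs, and by CMT2 in heterochromatin. Both non-CG marks are concentrated in the transposon-rich DNA around the centromeres and are sparse in gene bodies.

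Methylation was more often higher than lower in cen in each context, by a wide margin in CHG and a narrow one in CG. There were 32840 CG, 6832 CHG and 4993 CHH regions. The numbers higher and lower in cen were 18758 and 14082 in CG, 6134 and 698 in CHG, and 3920 and 1073 in CHH. For each lower region there were thus 1.33 higher ones in CG, 8.79 in CHG and 3.65 in CHH. CG gains spanned 2512.7 kb and CG losses 1834.7 kb. CHG gains spanned 781.5 kb and losses 85.9 kb, while CHH gains took up 480.7 kb and losses 120.3 kb. In the comparison of ddb2-3, which shares the Col library, the corresponding ratios were 0.907, 1.54 and 2.35.

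The differences in CG were the widest and those in CHH the narrowest, and gains and losses had different size profiles. In the authors' deposited tables the median higher CG region differed by 0.221 (quartiles 0.160 and 0.324) and the median lower one by 0.248 (0.176 and 0.355). In CHG the medians of these tables were 0.175 for higher and 0.180 for lower regions, and in CHH 0.119 and 0.129. Losses were thus slightly wider than gains at the median in each context. Differences of 0.5 or more were listed for 1013 higher and 991 lower CG regions, for 20 and 6 CHG regions and for 14 and 5 CHH regions. Among CG differences of 0.1 to 0.15, 64.2% (63.0 to 65.4) were higher in cen, and among those of 0.5 or more 50.5% (48.4 to 52.7). The CG excess of gains therefore lay among narrow differences. For differences of 0.1 to 0.15 in CHG the share higher was 89.6% (88.1 to 90.9). It was 90.2% (88.8 to 91.5) for 0.2 to 0.3, and 81.7% (76.3 to 86.1) for 0.3 to 0.4. Gains prevailed at each CHG size. In CHH it was 80.7% (79.4 to 81.9) at 0.1 to 0.15 and 67.7% (61.7 to 73.2) at 0.2 to 0.3. The few wider CHH differences had no clear excess at 0.4 to 0.5, where 45.5% (26.9 to 65.3) of 22 were higher, and 73.7% (51.2 to 88.2) of 19 were higher at 0.5 or more.

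**Figure D1:**
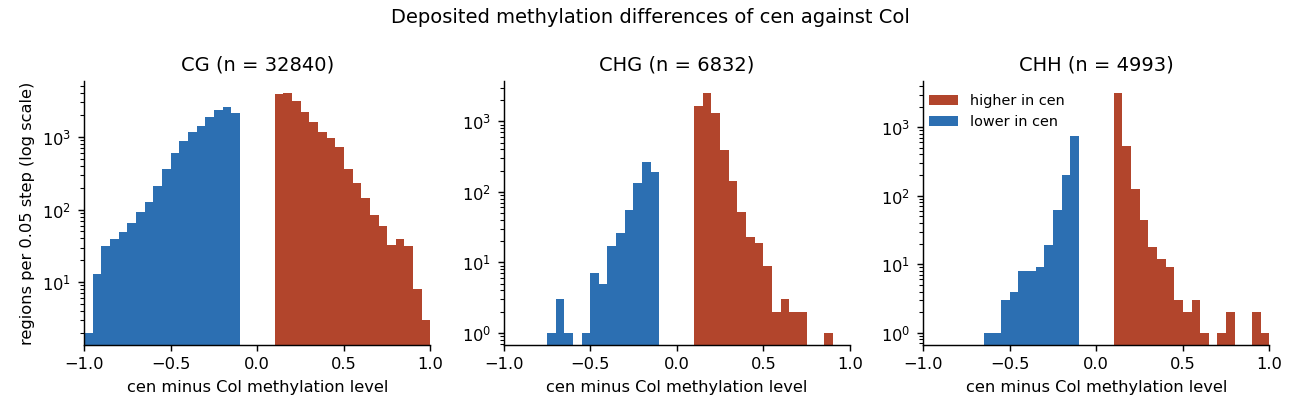
Number of cen regions per equal step of the methylation difference, cen minus Col, on a log axis, with 1 panel per context; red is higher and blue lower in cen. No region lies between -0.1 and 0.1, and in CHG the 6134 higher regions stand well above the 698 lower ones.

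By chromosome, the excess of gains held on all 5 in all contexts. In CHG the share of regions higher in cen was 86.1% (84.1 to 88.0) on chromosome 1, 91.1% on chromosome 2, 90.5% on chromosome 3, 91.5% (89.8 to 92.9) on chromosome 4 and 89.1% on chromosome 5. Chromosome 1 had the lowest share in each context, at 53.9% (52.8 to 55.0) in CG and 76.5% (74.0 to 78.7) in CHH. In CG chromosome 2 had the largest, 62.0% (60.7 to 63.3), and in CHH chromosome 4, 82.0% (79.2 to 84.6). CHG regions were densest on chromosome 2, with 75.2 per Mb, and sparsest on chromosome 1, with 38.9 per Mb. CG regions were spread more evenly, at 264 to 284 per Mb.

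Pericentromeres, taken as 3 Mb to each side of an assumed centromere midpoint, held most CHG and CHH gains. They make up 25.2% of the nuclear genome. Of CHG regions 77.6% (76.6 to 78.6) lay there, of CHH regions 55.6% (54.2 to 56.9) and of CG regions 23.0% (22.5 to 23.4). In ddb2-3 the same shares were 73.2%, 47.3% and 22.8%. CHG regions of cen numbered 177 per Mb in pericentromeres and 17.1 per Mb on the arms. The pericentromeric count of CHG regions was 782 on chromosome 1, 1195 on chromosome 2, 1262 on chromosome 3, 1059 on chromosome 4 and 1007 on chromosome 5, each over 6 Mb. Chromosome 1 was thus the sparsest in its pericentromere too, at 130 per Mb, against 168 to 210 per Mb on the others.

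Gains made up a larger share near the centromere than on the arms in all contexts. The same order held in ddb2-3, with 52.4% and 46.1% in CG, 66.0% and 46.0% in CHG and 72.5% and 68.0% in CHH. In CG 66.9% (65.9 to 68.0) of pericentromeric regions were higher in cen, and 54.2% (53.6 to 54.8) of those on the arms. The pericentromeric CG share was 72.4% (70.1 to 74.5) on chromosome 2 and 70.8% on chromosome 3, and 62.9% to 65.0% on the other 3. In CHH the shares were 84.5% (83.1 to 85.8) in pericentromeres and 71.0% (69.1 to 72.8) on the arms. In CHG they were 91.6% (90.8 to 92.3) and 83.4% (81.5 to 85.2). On the arms themselves the CHG share higher was lowest on the right arm of chromosome 1, at 76.6% (70.3 to 81.9) of 205 regions, and on the left arm of chromosome 5, at 77.6% (68.8 to 84.4) of 107. The short left arms of chromosomes 2 and 4 outside the pericentromere had CHG shares of 92.3% of 39 regions and 96.3% of 27, with wide intervals (79.7 to 97.3 and 81.7 to 99.3).

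**Figure D2:**
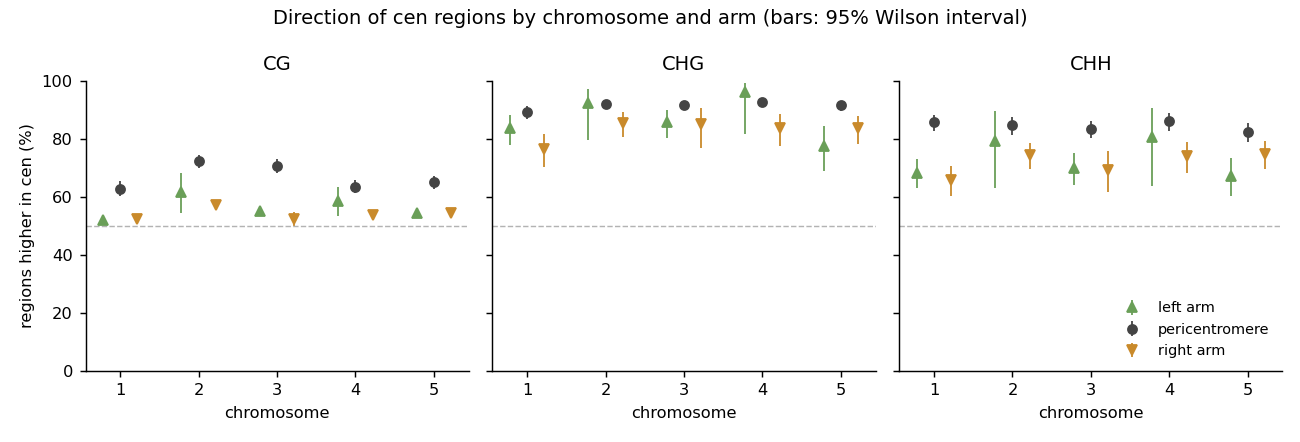
Share of cen regions that are higher than Col (y axis, percent, 50% dashed) on the left arm, in the pericentromere and on the right arm of chromosomes 1 to 5 (x axis), 1 panel per context, with 95% Wilson intervals. The pericentromeric CG point lies above both arm points on each chromosome, and all CHG points lie above 76%.

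By distance from the centromere, CG losses thinned out toward the centre and CG gains did not. Within 0.5 Mb of the midpoint there were 149 higher and 37.8 lower CG regions per Mb, and beyond 5 Mb 149 higher and 129 lower. The density of CG gains was therefore nearly level while that of losses was lower near the centromere. The share of CG regions higher in cen was 79.8% (77.1 to 82.3) within 0.5 Mb, 66.8% (64.9 to 68.6) at 1 to 2 Mb, 56.6% (55.2 to 57.9) at 3 to 5 Mb and 53.5% (52.8 to 54.2) beyond 5 Mb. CHG gains behaved differently: their density was 195 per Mb within 0.5 Mb, 244 at 0.5 to 1 Mb, 87.3 at 2 to 3 Mb and 10.3 beyond 5 Mb. CHG losses were also denser inside than outside, at 18.6 per Mb within 0.5 Mb and 2.40 beyond 5 Mb. Which cytosines could be measured along this gradient is not known, and the part of coverage and mapping in it was not tested.

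**Figure D3:**
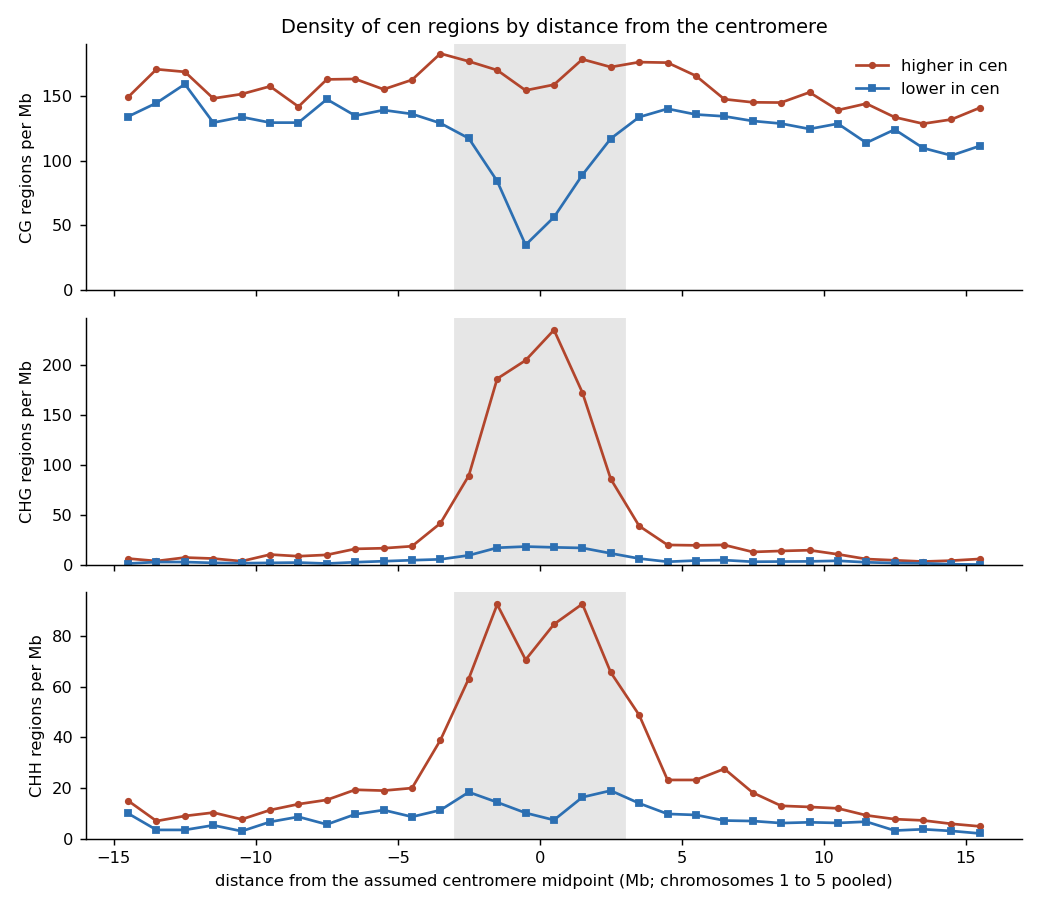
Regions per Mb (y axis, 1 panel per context) in 1 Mb steps of distance from the assumed centromere midpoint (x axis, Mb), chromosomes 1 to 5 pooled; red is higher and blue lower in cen, and grey marks the pericentromere. CG losses dip at the centre while CG gains within 3 Mb stay between 154 and 178 per Mb, and CHG and CHH gains peak within 3 Mb.

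Within pericentromeres the CG excess of gains again lay among narrow differences. Among pericentromeric CG differences of 0.1 to 0.2, 73.6% (72.2 to 74.9) were gains. The figure was 62.1% (59.9 to 64.2) for 0.2 to 0.3, and for 0.3 or more it was 54.8% (52.3 to 57.3). The same steps on the arms gave 56.8%, 54.4% and 51.5% (50.5 to 52.5). For CHG in pericentromeres they gave 91.9%, 92.0% and 83.7% (78.0 to 88.1).

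The heterochromatic knob on the short arm of chromosome 4, a stretch of transposons set apart from the centromere and taken as 1.6 to 2.3 Mb, lies inside the pericentromeric span used here. It held 153 CHG regions, 144 higher and 9 lower, or 219 per Mb, a density like that at the centromere. It also held 124 higher and 71 lower CG regions and 46 higher and 4 lower CHH regions.

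CHG gains lay close together. In 100 kb steps along the chromosomes, 125 of 1193 bins held 50% of all CHG regions, against 208 bins for CHH and 459 for CG. The 119 fullest bins held 48.2% of CHG, 34.2% of CHH and 15.5% of CG regions, and 321 bins had no CHG region at all. The densest bin, chromosome 2 from 4500001 to 4600000, held 41 higher and 3 lower CHG regions. The next was chromosome 3 from 14800001 to 14900000, with 40 higher and 1 lower, and on chromosome 4 the bin from 3300001 to 3400000 held 40 higher and none lower. Each of the 5 densest CHG bins was pericentromeric, whereas the 5 densest CG bins all lay on arms.

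At short range, 36.6% (35.4 to 37.8) of CHG regions higher in cen had another such region within 1 kb, and 5.30% (3.87 to 7.22) of those lower did. The median gap between successive regions of the same direction was 3400 bp for CHG gains and 63100 bp for CHG losses. Losses were fewer, and with fewer regions gaps widen whatever their order, so these values describe each list and do not rank their clustering. For CG the shares were 40.2% for gains and 37.6% for losses, and for CHH 25.4% and 9.79%. Of the 6134 CHG gains, 4860 were pericentromeric, and 38.6% (37.2 to 40.0) of these had a neighbour, as did 28.9% (26.5 to 31.4) of the 1274 on the arms. Runs of CHG gains with gaps of at most 1 kb reached 3 or more regions in 231 cases and 5 or more in 26, which together held 141 regions. CHG losses formed 2 runs of 3 or more, the longer of 4 regions. By chromosome, runs of 5 or more CHG gains numbered 8 on chromosome 5, 7 on chromosome 3, 5 on chromosome 4 and 3 each on chromosomes 1 and 2.

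**Figure D4:**
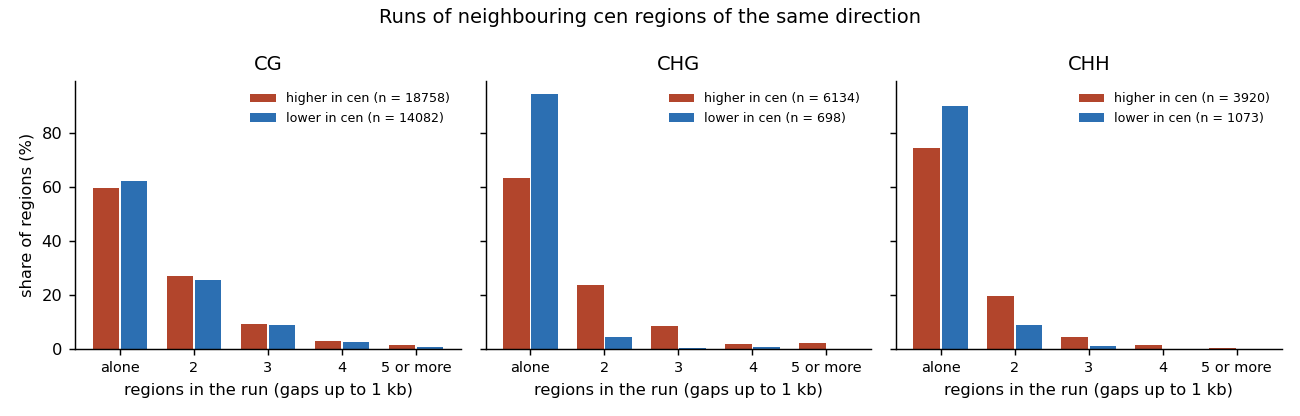
Share of cen regions (y axis, percent of the regions of that context and direction) that stand alone or in runs of 2, 3, 4 or 5 and more regions of the same direction with gaps of at most 1 kb (x axis); red is higher and blue lower in cen. Of CHG gains 36.6% stood in a run, against 5.30% of the fewer CHG losses.

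The share of neighbours with the same direction varied with the gap between them, and is set beside the share that the totals of each direction give. In CG, 1278 pairs of regions adjoined without a gap and 128 overlapped, and all of these pairs had opposite directions. In CHG 10 pairs adjoined and 1 overlapped, and in CHH 39 and 1. Regions of the same direction were never closer than 200 bp in any context of the deposited lists, so adjoining pairs could only be opposite. At gaps of 1 to 500 bp, which this spacing also affects, 44.2% of 7810 CG pairs, 86.0% of 802 CHG pairs and 56.3% of 554 CHH pairs had the same direction. At gaps over 500 and up to 1000 bp, 52.7% of 4094 CG pairs had the same direction, and the CG totals alone would give 51.0%. For CHG it was 85.0% of 709 pairs, beside 81.7% from the totals, and for CHH 71.4% of 339, beside 66.3%. The totals pool pericentromeres and arms, where the share of gains differed. Whether neighbours matched beyond what their zone gives was not tested. Beyond 10 kb CHG neighbours matched in 74.0% of 1634 pairs.

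The largest CHG runs overlapped annotated pseudogenes, with 1 exception that overlapped a protein-coding gene on an arm. Overlap was with the span of the run, and not every region of each run lay inside the gene named. Gene names and places come from a RefSeq gene table, and many of its Arabidopsis pseudogenes have no product name. The first run, 8 gains in 5.5 kb at chromosome 2 from 4997701 to 5003200, overlapped the pseudogene AT2G12390. In the authors' deposited table its regions were higher by 0.204, 0.203, 0.136, 0.146, 0.175, 0.110, 0.244 and 0.257. A second, of 7 gains in 3 kb at chromosome 1 from 17023501 to 17026500 (AT1G45020), ranged from 0.111 to 0.188 in the authors' deposited table, with 1 CG gain of 0.167 and 1 CHH gain of 0.104 inside it. Runs of 6 lay at chromosome 1 from 14598701 to 14602300 (AT1G39270, 0.149 to 0.220) and chromosome 3 from 14427201 to 14431600 (AT3G42256, 0.126 to 0.212), each with 2 CG gains, in the same deposited tables of the authors. In the first run the authors' deposited tables give ddb2-3 minus Col as 0.236 and -0.179 in CHG and -0.162 in CG. In the second they give 0.108 in CHG and 0.107 and 0.105 in CHH. At the AT1G39270 run they give 0.176 in CG, and at the AT3G42256 run 0.160 in CHG and -0.185 in CG.

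The exception was a run of 6 CHG gains in 3 kb on the right arm of chromosome 4, from 8588301 to 8591300. It overlapped the protein-coding gene AT4G15050, and not all 6 gains lay inside that gene. In the authors' deposited table they were 0.286, 0.146, 0.288, 0.172, 0.327 and 0.525, and the last 2 are 500 bp long each. CG gains of 0.408, 0.213 and 0.783 lay at the same place in the authors' deposited table. The neighbouring gene AT4G15053 carried a further CHG gain of 0.143 and a CHH gain of 0.117, and CG gains of 0.194 inside it and 0.664 within 1 kb, in those authors' deposited tables. Every region listed for cen in the run and at AT4G15053 was a gain. The comparison of ddb2-3, with the same Col library, listed 2 CG gains (0.261 and 0.718) and 2 CHG gains (0.2003 and 0.409) in the run in the authors' deposited tables.

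Relative to genes, CG regions lay in gene bodies and non-CG regions mostly did not. By midpoint 78.3% (77.9 to 78.8) of CG regions fell in protein-coding genes, which hold 54.1% of all 100 bp windows of the nuclear genome. Of CHG regions 9.75% (9.07 to 10.5) fell in such genes, as did 6.61% (5.95 to 7.33) of CHH regions. Pseudogenes, at 8.68% of the genome, held 46.4% (45.2 to 47.6) of CHG, 15.001% of CHH and 7.42% of CG regions. On the arms, where pseudogenes take 2.26% of the genome, they still held 28.2% (26.0 to 30.5) of CHG regions. Of CHH regions on the arms 44.2% (42.1 to 46.2) lay outside a protein-coding gene but at most 1 kb from one, beside 21.2% of the arm genome.

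The direction also varied with the kind of gene. CG regions were higher in cen in 76.6% (74.8 to 78.2) of cases in pseudogenes, in 69.3% (67.5 to 71.1) away from all genes, in 63.7% (61.5 to 65.9) within 1 kb of a protein-coding gene and in 53.5% (52.9 to 54.1) inside protein-coding genes. On the arms alone the CG shares were 68.7% (64.5 to 72.7) in pseudogenes and 53.2% (52.5 to 53.8) in protein-coding genes. CHG gains prevailed in each class, with the smallest share within 1 kb of protein-coding genes on the arms, at 75.3% (71.0 to 79.1), and 90.5% (87.3 to 92.9) in pseudogenes on the arms.

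Inside protein-coding genes, CG regions of either direction were sparse near the gene ends. Of 13946 region-gene pairs higher in cen, 7.65% had their midpoint in the outer 10% of the gene at either end, and of 12102 lower pairs 6.98% did, where an even spread would give 20%. For CHG gains the share was 18.3% of 607 pairs and for CHH gains 21.1% of 246. The gene table gives no strand, so 5′ and 3′ ends were not told apart.

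A CG region lay inside 12443 of 27432 protein-coding genes (45.4%), with a higher one in 33.6% and a lower one in 29.7%. A single region was found in 5816 of these genes, 2 or more in 6627, 5 or more in 856 and 10 or more in 38. Genes with several CG regions usually had both directions: of the 6627 with 2 or more, 4913 (74.1%) had both, 1020 had gains alone and 694 had losses alone. Of 1720 genes with 4 or more, 34 had gains alone and 22 losses alone. Genes with a CG region had a median length of 2849 bp, and those with 5 or more a median of 5942 bp.

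The 5 protein-coding genes with most CG regions were long and mixed in direction. AT1G67120, which encodes midasin, an AAA ATPase of ribosome assembly, had 4 higher and 13 lower regions in 26.2 kb, and the authors' deposited table gives its differences as up to 0.216 higher and 0.634 lower. AT4G02660 had 6 higher and 9 lower regions, which reached 0.496 and 0.670 in the authors' deposited table. ATM, the kinase that signals DNA breaks, had 7 higher and 7 lower in 27.3 kb, reaching 0.469 and 0.481 in the authors' deposited table. TOR, the kinase that couples nutrients to growth, had 6 higher and 8 lower, reaching 0.277 and 0.745 in the authors' deposited table. AT4G17140 had 4 higher and 10 lower, reaching 0.479 and 0.510 in the authors' deposited table. Per kb these genes held 0.513 to 1.012 CG regions. In none of the 5 were CHG or CHH regions listed for cen. In the comparison of ddb2-3, CG gains and losses numbered 2 and 11 in AT1G67120, 7 and 1 in AT4G02660 and 7 and 8 in ATM. For ddb2-3 they numbered 6 and 5 in TOR and 7 and 14 in AT4G17140.

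**Figure D5:**
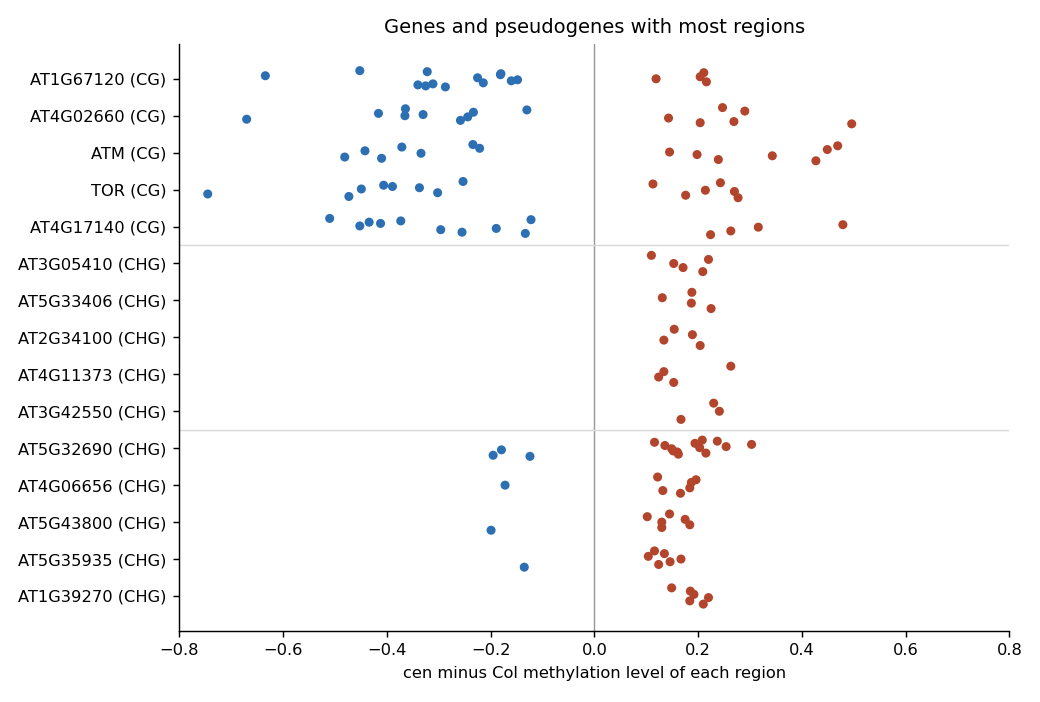
Methylation difference, cen minus Col (x axis), of the CG regions inside the 5 protein-coding genes with most of them (top), and of the CHG regions inside the 5 protein-coding genes (middle) and the 5 pseudogenes (bottom) with most of those. Each point is a region of that context, red higher and blue lower in cen. Points of the CG genes fall on both sides of 0, while the CHG regions of the genes in the middle lie between 0.110 and 0.263.

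CHG regions lay inside 567 protein-coding genes (2.07%), with a gain in 1.87% and a loss in 0.244% of all such genes. Most had 1 region (475), 92 had 2 or more, and of these 76 had gains alone, 4 losses alone and 12 both. AT3G05410 led with 5 gains, of 0.110, 0.220, 0.153, 0.171 and 0.209 in the authors' deposited table, beside 3 CG gains and no loss. AT5G33406 had 4 gains in 2.35 kb, of 0.188, 0.131, 0.187 and 0.225 in the authors' deposited table. AT2G34100 had 4 (0.154, 0.189, 0.134 and 0.204), AT4G11373 had 4 (0.263, 0.134, 0.124 and 0.153) and AT3G42550 had 3 (0.230, 0.241 and 0.167), as the authors' deposited table gives them. None of these 5 genes held a CHG or CG loss. In the comparison of ddb2-3 the same genes held 3 CHG gains and 2 losses (AT3G05410), 1 gain (AT5G33406, AT2G34100 and AT3G42550) and 2 gains (AT4G11373).

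CHG regions lay inside 1939 of 4843 pseudogenes (40%), with a gain in 38.1% and a loss in 5% of all pseudogenes. Of 791 with 2 or more CHG regions, 638 had gains alone, 3 losses alone and 150 both. AT5G32690, a locus of 58.5 kb on chromosome 5, had 13 higher and 3 lower CHG, 12 higher and 5 lower CG and 5 higher CHH regions. AT4G06656, AT5G43800 and AT5G35935 each had 6 CHG gains and 1 loss, with gains between 0.102 and 0.196 in the authors' deposited table. AT1G39270 had 6 gains and no loss, of 0.149 to 0.220 in the authors' deposited table. CG regions lay inside 34.8% and CHH regions inside 12.3% of pseudogenes.

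CHH regions lay inside 282 protein-coding genes (1.03%), with a gain in 0.798% and a loss in 0.31%. AT1G39070 had 5 gains, of 0.106 to 0.290, and 1 loss of 0.107 in the authors' deposited table. AT3G22125 and AT3G22142, whose annotated spans overlap, shared 2 CHG gains and 4 CHH regions, for which the authors' deposited table gives gains of 0.120 and 0.149 and losses of 0.144 and 0.151. In the comparison of ddb2-3, AT1G39070 held 3 CHH gains and 1 loss, and AT3G22125 and AT3G22142 each 2 gains and 2 losses.

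Regions of several contexts met at 927 genes and pseudogenes, counted with 1 kb on either side, and at 148 when only differences of at least 0.15 were kept. With all differences, regions of all 3 contexts were found at 316 protein-coding genes (1.15%) and 611 pseudogenes (12.6%). Of the 316, 120 had gains alone, 12 losses alone and 184 both directions, and of the 611 pseudogenes 313 had gains alone and none losses alone. Inside the gene itself 48 protein-coding genes and 210 pseudogenes had all 3. CG with CHG regions met in 319 protein-coding genes and in 964 pseudogenes.

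After AT4G15053, the widest differences over all contexts lay at SECA2 (AT1G21650), which encodes a protein export ATPase of the chloroplast, and at its neighbours. At chromosome 1 from 7604901, within 1 kb of SECA2, CG was higher by 0.704, CHG by 0.396 and CHH by 0.181 in the authors' deposited tables. This spot also counts for AT1G21660 and for AT1G21651, which lies within the span of SECA2. Inside SECA2 the authors' deposited table lists 5 CG gains, of up to 0.782, and 3 losses, of up to 0.362. Beside AT4G10620, CG gains of 0.686, 0.340 and 0.199, CHG gains of 0.420 and 0.201 and a CHH gain of 0.206 were listed in the authors' deposited tables. Inside that gene the authors' deposited table has a CG gain of 0.253 and a CG loss of 0.190. Near AT5G35405 CG and CHG were higher by 0.591 and 0.462 at chromosome 5 from 13604801 to 13605100, with 2 further CG gains, 1 further CHG gain and a CHH loss of 0.141 within 1 kb of the gene, in the authors' deposited tables.

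At 2 of the 8 leading genes the widest difference in each context was a loss, beside narrower CG gains. Beside AT2G34730, on chromosome 2 from 14653601, CHG was lower by 0.236 and CHH by 0.222 inside a CG region lower by 0.724, as the authors' deposited tables give them. Inside the gene the authors' deposited table lists CG gains of 0.513 and 0.298 and losses of 0.531 and 0.391. At AT1G50060 CG was lower by 0.756 and CHG by 0.360 and 0.194, with a CG gain of 0.239, a CHH loss of 0.129 and a CHH gain of 0.102 nearby, in the authors' deposited tables.

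At the level of single regions, overlapping contexts nearly always moved the same way. A CG region overlapped 940 of 6832 CHG regions (13.8%) by 1 bp or more, and 934 of 941 such pairs had the same direction. CG regions cover 3.65% of the nuclear genome. CHG losses overlapped a CG region in 23.4% (20.4 to 26.6) of cases and CHG gains in 12.7% (11.9 to 13.5). Of 4993 CHH regions 322 (6.45%) overlapped a CHG region, which cover 0.728% of the genome, and 321 of 322 pairs had the same direction. CHH gains overlapped CHG in 7.32% (6.55 to 8.18) and CHH losses in 3.26% (2.35 to 4.503). CHH and CG regions overlapped at 147 CHH regions (2.94%), with 134 of 148 pairs alike. At 64 CHG regions both other contexts overlapped, 48 of them all higher, 16 all lower and none mixed. All contexts come from the same libraries and reads of the same molecules, so they are not independent measurements.

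Genes of 5 lists drawn from repair and methylation pathways were counted with 1 kb on either side. Among all protein-coding genes, 59.1% had a CG region by this count, 5.96% a CHG and 7.01% a CHH region. In a list of DNA repair genes, which covers excision of lesions across the genome and in transcribed genes and their direct reversal by photolyases, 19 of 24 genes had a CG region, with 35 higher and 29 lower. DDB1B (AT4G21100), a partner of the damage sensor DDB2, had 5 CG regions, all lower, by 0.346, 0.186, 0.342, 0.304 and 0.853 in the authors' deposited table. RAD23D (AT5G38470), a ubiquitin receptor that stabilises the recognition protein RAD4, had 3 CG gains (0.326, 0.388 and 0.535), with a CHH loss of 0.101 and a CHH gain of 0.109 in adjoining windows within 1 kb, in the authors' deposited tables. CHR8 (AT2G18760), the homologue of a transcription-coupled repair ATPase, had 4 CG gains and 2 losses, the widest 0.578 in the authors' deposited table. XPB2 (AT5G41360), a helicase of TFIIH, had 3 CG gains and 2 losses and a CHG gain of 0.209 within 1 kb in the authors' deposited table. DDB2 itself had a gain within 1 kb and 2 losses in the gene. AT3G50360 and AT4G37010, which encode centrins and are both called CEN2 in the gene table, had no region in any context.

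Of 11 genes that maintain methylation, 10 had a CG region, 21 higher and 20 lower in all, and none had a CHG or CHH region. SUVH5 (AT2G35160), a histone H3 lysine 9 methyltransferase, had 3 gains and 1 loss, reaching 0.553 in the authors' deposited table. CMT3 (AT1G69770), the CHG methyltransferase, had a loss of 0.505 and a gain of 0.479, and DDM1 (AT5G66750), a remodeller needed for heterochromatic methylation, had gains of 0.501 and 0.309 and losses of 0.395 and 0.264, in the authors' deposited table. SUVH4, the histone methyltransferase partner of CMT3, had 3 losses and no gain. Among 10 genes of active demethylation, in which glycosylases cut out methylcytosine, 8 had CG regions, 20 higher and 15 lower. DML2 (AT3G10010), such a glycosylase, had 5 regions, all of them gains, which the authors' deposited table gives as 0.348, 0.530, 0.592, 0.168 and 0.211. ROS1 (AT2G36490), the main glycosylase of vegetative tissue, had 4 CG gains and 5 losses, the widest a loss of 0.416, and a CHG loss of 0.139 in the gene, in the authors' deposited tables. IDM1 (AT3G14980), a histone acetyltransferase that assists ROS1, had 3 gains and 1 loss, reaching 0.644, and APE1L (AT3G48425), an endonuclease of the same pathway, 3 gains and 2 losses, reaching 0.548, in the authors' deposited table.

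In RNA-directed DNA methylation 20 of 24 genes had a CG region, 52 higher and 40 lower. NRPD2 (AT3G23780), the shared second subunit of polymerases IV and V, had a loss of 0.785 with 2 narrower losses and a gain of 0.202 in the authors' deposited table. AGO4 (AT2G27040), the Argonaute that carries the small RNAs, had 3 gains and 4 losses, among them a gain of 0.712 and a loss of 0.638 in the authors' deposited table. CLSY4 (AT3G24340), a remodeller that recruits polymerase IV, had 4 gains and 2 losses, reaching 0.6003 in the authors' deposited table. NRPD1 (AT1G63020), the largest subunit of polymerase IV, had 3 CG gains and no loss, and a CHG gain of 0.194 within 1 kb, in the authors' deposited tables.

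In a list of imprinted genes and genes whose expression responds to methylation, 10 of 19 had CG regions, 12 higher and 9 lower, CHG regions at 4 and CHH regions at 3. The CHG regions were 5 gains and 1 loss. RPP7 (AT1G58602), an immune receptor gene, had CHG gains of 0.113, 0.179 and 0.124, CHH gains of 0.102 in the gene and 0.151 within 1 kb, and 5 CG gains with 2 losses, in the authors' deposited tables. FWA (AT4G25530), an imprinted homeobox gene, had a CHG gain of 0.228 and a CHH gain of 0.114 in the same window, chromosome 4 from 13038401 to 13038500, with CG losses of 0.185 in the gene and 0.127 within 1 kb, in the authors' deposited tables. RPP4 (AT4G16860), another receptor gene, had a CHG gain of 0.152 in the authors' deposited table, with 1 CG gain and 1 loss. SDC (AT2G17690), an F-box gene silenced through promoter repeats, had a CHG loss of 0.170 within 1 kb and a CG gain of 0.293 in the gene in the authors' deposited tables. Near MEA, an imprinted Polycomb gene, a CHH region was lower by 0.104 in the authors' deposited table. The widest CG differences of the list were 0.531 at PAI2, 0.491 at SNC1 and 0.293 at SDC in the authors' deposited table.

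The widest single differences fell mostly in windows of 100 bp. In CG, the authors' deposited table gives cen as higher by 0.971 at AT3G24870 (chromosome 3, 9079401 to 9079500), by 0.962 at AT3G11560 and TBL8 (chromosome 3, 3645201 to 3645300) and by 0.953 at AT1G06470. It was lower by 1 at the pseudogene AT1G27810, by 0.957 at AT3G11130, which encodes a clathrin heavy chain, and by 0.940 at EDA30, in the authors' deposited table. For ddb2-3 minus the same Col library, the authors' deposited table gives 0.933, 0.683 and 0.873 at the 3 places of CG gain. It gives -0.473 at AT3G11130 and no value at AT1G27810 or EDA30. A difference of 1 means all reads methylated in one plant and none in the other, and the number of reads is unknown. In CHG the gains were 0.875 at AT2G01010, a ribosomal RNA gene near the start of chromosome 2, 0.722 at AT3G30767 and 0.707 at AT2G07724 in the authors' deposited table. CHG losses there were 0.726 at AT4G09370, 0.691 at AT5G36840 and 0.675 within 1 kb of AT1G40115 and AT1G40117, all pseudogenes, in the authors' deposited table. At these CHG places ddb2-3 minus Col was 0.423 at AT2G07724 and -0.468 at AT4G09370 in the authors' deposited table, with no value at the others. CHH gains reached 1 at AT1G24822, 0.950 near AT1G20280 and AT1G20290 and 0.935 at chromosome 1, 15352401 to 15352600, in the authors' deposited table. CHH losses were narrower, with the widest at 0.622, 0.553 and 0.520, all in pericentromeres without a gene within 1 kb, in the authors' deposited table. For ddb2-3 minus Col the authors' deposited table gives 0.648 at chromosome 1, 15352401 to 15352600. It gives -0.505 and -0.49 at the losses of 0.622 and 0.520, and no value at the other CHH places.

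The longest regions were gains in all contexts. In CG they were 1200 bp in MEE65 (AT2G01280), higher by 0.448, 1100 bp in FTSH7 (AT3G47060), a gene of the FtsH protease family, by 0.268, and 1000 bp at chromosome 3 from 10359301 to 10360300, by 0.293, in the authors' deposited table. CHG had 3 regions of 1100 bp, beside TRM26 (AT2G17550), higher by 0.347, in the pseudogene AT3G29642, by 0.260, and in ASB1 (AT1G25220), which encodes a subunit of anthranilate synthase, by 0.201, in the authors' deposited table. The longest CHH regions were 800 bp in AT5G42635, 700 bp in the pseudogene AT1G22560 and 600 bp at chromosome 4 from 1438801 to 1439400. The authors' deposited table gives their gains as 0.228, 0.203 and 0.199. Most of these places also held gains in ddb2-3 minus the same Col library. The authors' deposited tables give 0.248 beside TRM26, 0.168 in ASB1 and 0.117 at the chromosome 4 place. Only gains were listed for ddb2-3 in MEE65, AT3G29642 and AT5G42635 and at the chromosome 3 place too. In FTSH7 ddb2-3 was lower (-0.141), and AT1G22560 had no value.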

How the data were processed

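Seedling DNA of Col and of ddb2-3, 1 library each, is labelled. The submitters' processing notes name Bismark with Bowtie2 (2.0) and TAIR10, besides Trim Galore, cutadapt and FastQC. The tool, test, threshold and coverage minimum behind the regions were not given in the sources used here. Altogether 6 deposited lists, 1 for each context and line, give a difference in methylation level per region on a grid of 100 bp, and the differences the authors deposited all exceed 0.1 in absolute size. Coordinates are as deposited and count from 1.

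The file's own label names Col before cen, and a positive deposited value was read as Col above cen. Regions with identical values in both lines (within 1.5e-06) have the same level in both. Of such regions 806 of 818 were positive in CG, 4 of 7 in CHG and 5 of 5 in CHH. The reading assumes that the shared level is mostly 0. A shared level of 1 would give the opposite sign, and levels are not in these lists, so the direction remains an assumption. Signs were turned round to give cen minus Col.

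Of 44674 rows for cen, 9 mitochondrial ones were set aside. Regions were placed by midpoint in genes listed by RefSeq for TAIR10.1, which served for gene names and neighbourhood alone, since the build differs by name. Its pseudogenes were not checked for transposons, and near-identical loci, whose reads can be confused, were not marked. Centromere midpoints were assumed at 15, 3.6, 14, 4 and 12 Mb. Genes were named by rule: per context and direction the 3 widest regions, per context the 3 longest, the genes with most regions (5, 5 and 3 protein-coding, 5 pseudogenes), the 8 widest over all contexts, the 5 largest CHG runs, and list genes with non-CG regions or among the 3 widest in CG. Genes named beyond it (SUVH4, DDB2, the centrins) were chosen after their values were seen. Members and lists, 88 genes, were chosen with earlier results of these data known. Steps were tested on simulated data. Software was Python (3.11.15) with matplotlib (3.10.9), SciPy (1.17.1), NumPy (2.4.6) and pandas (2.3.3). Alternatives were stricter limits, merging, other widths and distances, and leaving out regions shared with ddb2-3.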

Additional observations from a re-analysis of the deposited data

Results flagged for a closer look

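In 3 tallies cen and ddb2-3 moved opposite ways relative to the Col library that both comparisons share. The difference between the lines was not tested, since each stands for 1 deposited comparison. Of all CG regions 57.1% were higher in cen and 47.6% in ddb2-3. On the arms alone 54.2% of CG regions were higher in cen and 46.1% in ddb2-3. Of CHG regions on the arms 83.4% were higher in cen and 46.0% in ddb2-3. In each of these tallies the share was above 50% on 5 of 5 chromosomes in cen and on 0 of 5 in ddb2-3, and for CHG on the arms it ran from 80.05% to 86.4% by chromosome in cen and from 43.7% to 49.1% in ddb2-3.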

How the results depend on the processing

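Of 38 alternatives for the main results, 7 stayed within the counting interval or within 1.5 times the count, and 31 moved outside it. Only some of the alternatives recomputed the share of gains, and none of those put it below 50%. The rest recomputed pericentromeric shares, shares with a neighbour or gene counts, which say nothing on direction. The share of regions higher in cen, 57.1% in CG, 89.8% in CHG and 78.5% in CHH, was 55.5% in CG and 70.7% in CHH with differences of at least 0.15, and 53.9%, 88.9% and 66.1% with at least 0.2. By covered base pairs it was 57.8% in CG and 79.98% in CHH. Without regions that overlap one of ddb2-3 in the same context it was 61.3%, 91.1% and 82.3%. This exclusion shortened the CG list from 32840 to 17089, the CHG list from 6832 to 5541 and the CHH list from 4993 to 3764. All regions dropped overlapped a ddb2-3 region, and both comparisons use the same Col library. How far that shared library accounts for the overlap was not tested. The share in pericentromeres of 2 Mb to each side came to 14.1% for CG, 63.4% for CHG and 38.9% for CHH, and for 4 Mb it was 32.0%, 84.0% and 66.5%. With differences of at least 0.2 it was 16.9% in CG and 53.4% in CHH for 3 Mb. Regions with a neighbour of the same direction within 1 kb made up 39.1% in CG, 33.4% in CHG and 22.1% in CHH. Within 500 bp these shares were 23.7%, 18.9% and 12.5%, within 2 kb 56.6%, 52.5% and 32.9%, and with at least 0.2 they were 30.5%, 11.5% and 2.36% of fewer regions. Protein-coding genes with a CHG region numbered 567, and 1635 with 1 kb on either side. Genes with all 3 contexts numbered 927, and 258 in the gene alone, 542 within 500 bp and 148 with at least 0.15. Among genes named for their number of regions, 18 of 36 counts moved by more than 1.5 times under stricter limits, all of them CHG or CHH counts. With at least 0.2 no region of the context counted was left in AT3G22125, AT3G22142, AT4G06656, AT5G43800 and AT5G35935. No paired analysis was possible because no line has replicates. Depth per region is unknown, so precision is too.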

Other observations

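The cen lists held 9 mitochondrial rows, 7 CG and 2 CHG, which belong to no comparison above. Of these, 8 were higher in the authors' deposited tables, by 0.102 to 1, and 1 CG row was lower in cen by 1.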
